A study of Drosophila melanogaster with 9 samples.

Results

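This account covers the effect of Bonus (Bon) overexpression on the whole transcriptome of the developing eye of Drosophila melanogaster. It compares the 3 libraries of Bon-overexpressing eyes with the 3 libraries of mCherry control eyes, 6 of the 9 libraries of the series, across all genes. The libraries were picked by their titles alone, and the 3 libraries in which yki was also knocked down were left out. The control genotype was UAS-mCherry (BDSC #35787)/pGMR-GAL4, and the Bon genotype was UAS-bon-mCherry/+; pGMR-GAL4/+. Both groups therefore carried the pGMR-GAL4 driver, which acts in the differentiating eye, and both expressed mCherry, in the Bon group as a tag on Bon. Pupae were kept at 25 °C and their eyes were taken 40 to 41 h after puparium formation (APF), when ectopic epidermal trichomes begin to form in Bon eyes, per the series design. Eyes were pooled, 60 per sample, and libraries were made from 100 ng of RNA. The series design calls the 3 libraries of a group biological replicates, while the protocol describes pooling per genotype, so the p-values measure the spread between these libraries, part of which may be technical. The sex of the pupae, the line of the bon transgene and any marker alleles of the stocks are not stated in the labels. Each genotype is 1 combination of stocks, so an effect of Bon cannot be told apart from any other difference between them.

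Bon is the fly member of the TIF1 family of nuclear cofactors, which do not bind DNA in a sequence-specific way themselves but are recruited by transcription factors and by chromatin. The pupal eye at this stage is a lattice of photoreceptors, cone cells, pigment cells and bristles. These cells start to make screening pigment, the corneal lens and the apical extracellular matrix. Epidermal cells elsewhere on the body build actin-rich hairs, called trichomes, and cover them with chitin-based cuticle. The comparison asks which genes accompany the turn from eye to epidermis that the series design describes.

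Library totals ran from 34926438 to 48524961 counts. Expression is given in CPM, counts scaled by library size with TMM factors. Log CPM values correlated across genes at 0.996 to 0.997 within groups and at 0.964 to 0.966 between groups, and no pair of libraries in a group agreed within sampling noise, since their chi-square statistics were 4.54 to 11.1 per gene. Of the variance between libraries, 88.2% lay on the first principal component and 4.22% on the next. The gene bon (FBgn0023097, arm 3R) stood at 172, 168 and 172 CPM in mCherry eyes and at 4955, 5068 and 4621 CPM in Bon. Its log2 fold change was 4.84 ± 0.05 (n = 3 per group). Here and below, ± gives a standard error (SE) worked back from edgeR's quasi-likelihood test. Reads of the transgene cannot be told from those of the native gene in these counts. The eye markers glass (gl), at 404 to 420 CPM in mCherry and 424 to 468 CPM in Bon, and elav, at 356 to 379 and 379 to 402 CPM, were present in every library. The major rhodopsin gene ninaE was at or near 0 in both groups, with 0 to 0.101 CPM.

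Markers of other cells were measured beside the eye genes. The summed level of 17 hemocyte markers was 1417 to 1499 CPM in mCherry and 1200 to 1252 CPM in Bon, with the defining gene Hml at 1.18 to 1.68 and 1.05 to 1.27 CPM. The sum of 14 glial markers was 2118 to 2158 and 1891 to 1994 CPM, while the pan-glial factor repo stood at 119 to 128 and 119 to 138 CPM. The 22 markers of optic lobe and brain neurons summed to 770 to 865 and 835 to 899 CPM. The hemocyte and glial sums were lower in every Bon library than in any control, and the neuron sums overlapped. Also lower in every Bon library were the sums of muscle and tendon markers (2105 to 2235 and 1757 to 1854 CPM). The same held for fat body markers (340 to 370 and 310 to 333 CPM). It held too for trachea and head epidermis markers (616 to 642 and 558 to 572 CPM). The sum of sex determination and yolk genes was higher (497 to 522 and 785 to 917 CPM). Some of these markers, such as lz and Col4a1 in the hemocyte list, are also expressed by eye cells or other tissues. The part of such cells in single-gene results was not tested. In whole eyes, fewer cells of a type and less RNA per cell cannot be told apart, and this holds for every result that follows.

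Of 10962 genes tested, 5457 (49.8%) differed between the groups in edgeR's quasi-likelihood test, of which 2557 rose in Bon eyes and 2900 fell. Most of these differences were small. An absolute log2 fold change under 0.5 was found in 62.0% of the calls, and the median over all tested genes was -0.01. The libraries of the groups did not overlap for 6455 genes (58.9%). The split of rises and falls depended on scaling: rises made up 46.9% of calls with TMM factors, 62.5% with upper-quartile factors (3683 rises, 2211 falls) and 59.0% with library totals alone (3394 and 2361), which shifted the median of all genes by less than 0.1 on the log2 scale. A second test on the same fit, glmTreat, asked whether a change exceeded 2-fold. It called 686 genes (6.26%), with 263 rises (2.4%) and 423 falls (3.86%). Changes "beyond 2-fold" below are calls of that test, and "rose" or "fell" alone refers to the first test. With DESeq2, 540 of the 686 calls were also made.

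**Figure D1:**
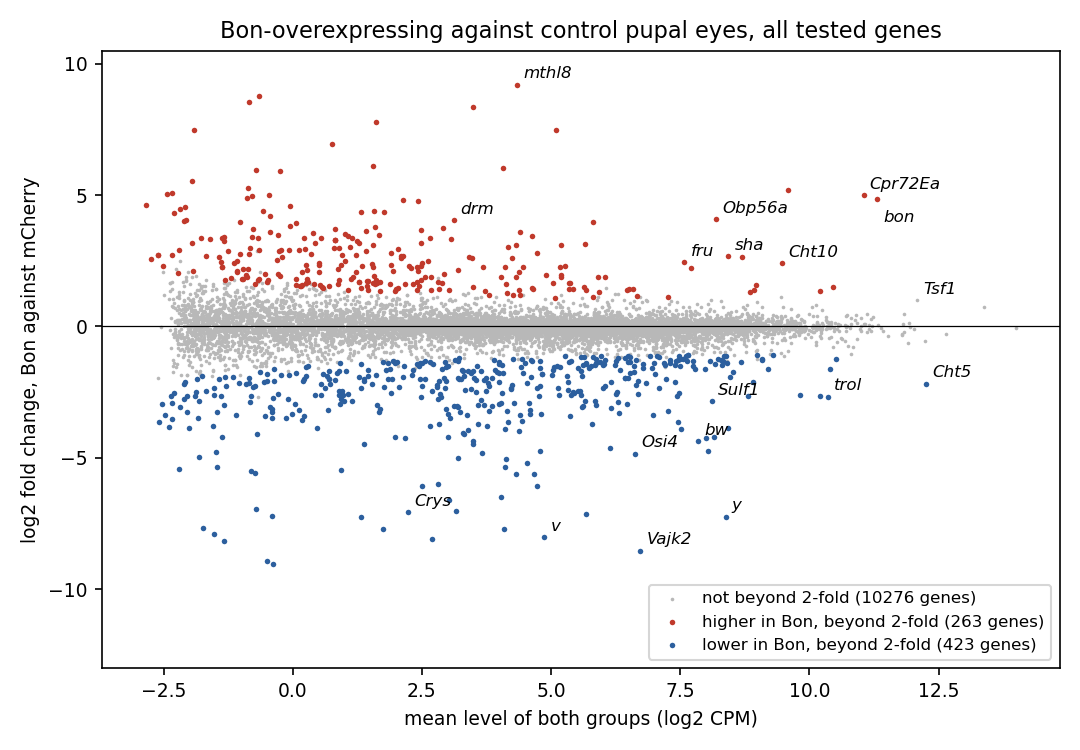
Log2 fold change of every tested gene, Bon against mCherry, over its mean level in both groups (log2 CPM). Coloured points are the 263 rises and 423 falls beyond 2-fold, grey points are the other genes, and names mark genes described in the text. Rises and falls beyond 2-fold occurred across the whole range of levels, with bon and Cpr72Ea among the most abundant rises and Cht5 and trol among the most abundant falls.

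Gene classes differed widely in how many of their members changed. Of 85 lists of related genes, 72 had at least 10 tested members, and in 25 of those 72 lists no member changed beyond 2-fold. At the other end, 13 of the 72 had more than 3 times the share of all tested genes (6.26%). The largest shares among these were those of Osiris genes (70.6%), the E(spl) and Bearded list, which takes in Hey (41.7%), Cpr cuticle proteins (40.6%) and tanning genes (38.5%). The lists of cytoplasmic ribosomal proteins, respiratory chain subunits, canonical proteasome subunits, septate junction genes and planar polarity genes had shares of 0%.

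**Figure D2:**
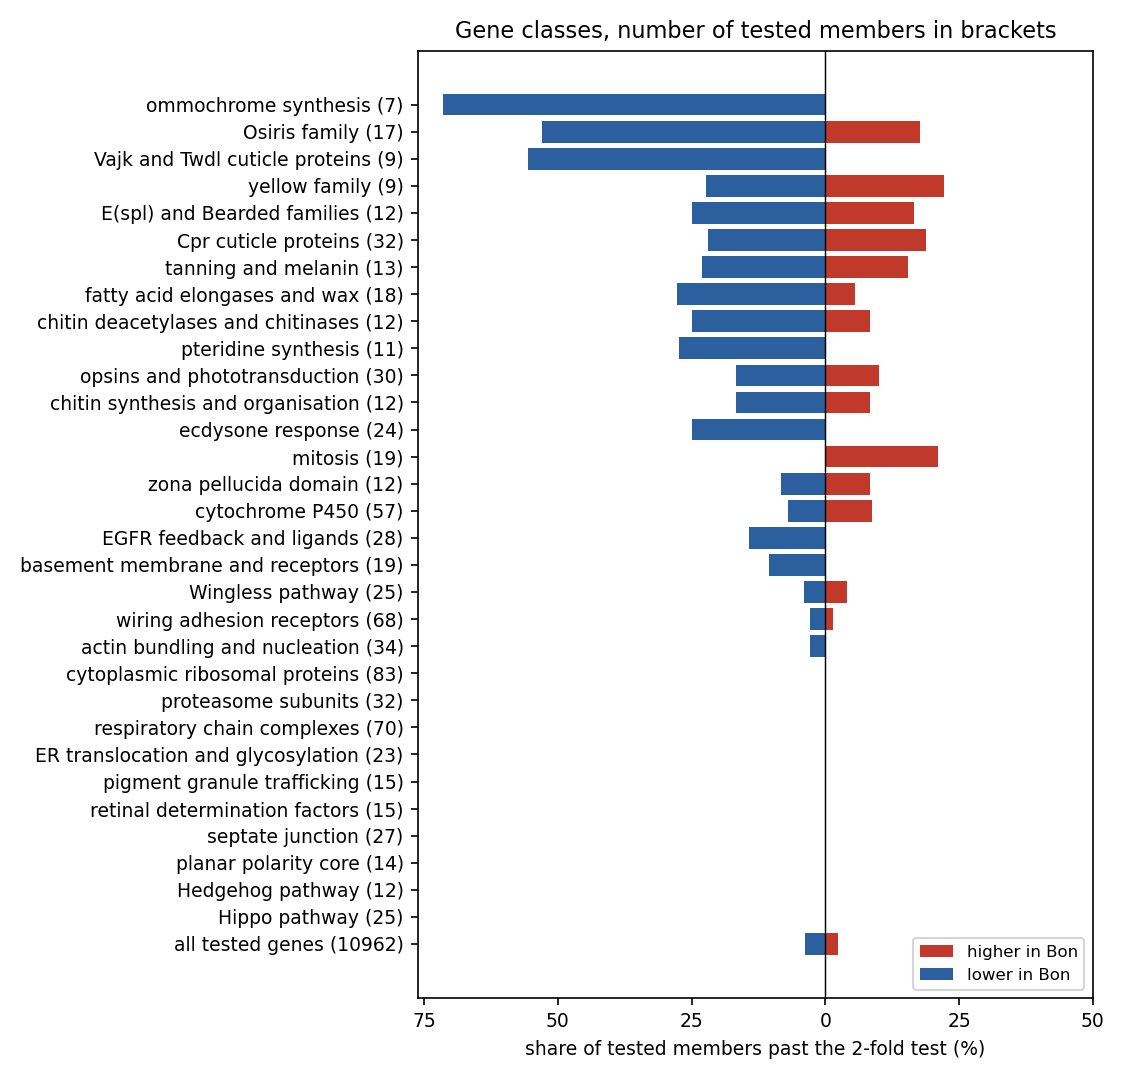
Share of the tested members of 31 of the 85 gene classes that rose (red, to the right) or fell (blue, to the left) beyond 2-fold, with the number of tested members in brackets and all tested genes in the lowest bar. Ommochrome synthesis (5 of 7 members), Osiris genes (12 of 17) and Vajk and Twdl cuticle genes (5 of 9) had the longest bars of those drawn, and the 10 classes above the lowest bar have none.

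Trichome genes were examined first, since trichomes are the stated phenotype. The gene shavenoid (sha), which acts in building the actin hair, stood at 94, 91.1 and 95.9 CPM in mCherry eyes and at 603, 637 and 554 CPM in Bon eyes. All Bon libraries lay far above all controls (log2 fold change 2.68 ± 0.05, glmTreat adjusted p = 6.3e-10). The gene ovo, whose shavenbaby product switches on the trichome programme, went from 44.8, 45.7 and 51.1 CPM to 111, 125 and 96 CPM (1.24 ± 0.11, edgeR adjusted p = 0.000181), and forked (f), an actin bundler, from 187, 179 and 176 CPM to 361, 376 and 355 CPM (1.01 ± 0.03, edgeR adjusted p = 1.25e-09). Neither passed the 2-fold test. Of the 12 genes of the trichome list, 5 rose and 7 fell, so the list as a whole did not move 1 way. In all 1 rise and 2 falls were beyond 2-fold (25%). The median log2 fold change of the list was -0.42. Its summed level was lower in every Bon library, at 8674 to 9953 CPM in mCherry and 6737 to 6996 CPM in Bon. Among the smaller falls were singed (sn), another actin bundler, at -0.30 ± 0.03, and SoxN, a regulator that acts beside shavenbaby, at -0.54 ± 0.08.

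Genes for the apical extracellular matrix also split. All 12 tested zona pellucida domain genes, whose products form a meshwork that shapes the apical surface, passed the first test, 6 in each direction, and the same numbers held under each of the other 3 scalings. The largest fall was in dusky-like (dyl), from 298, 351 and 323 CPM to 25.4, 21.4 and 31.5 CPM (-3.64 ± 0.15, glmTreat adjusted p = 0.000104). The largest rise was in quasimodo (qsm), from 50.7, 50.5 and 53.6 CPM to 144, 150 and 125 CPM (1.44 ± 0.07, glmTreat adjusted p = 0.00042). The groups did not overlap for either gene. The other 10 members did not pass the 2-fold test, for example trynity (tyn) at -0.54 ± 0.06, piopio (pio) at -0.44 ± 0.04, neyo (neo) at 0.62 ± 0.04 and nyobe (nyo) at 0.92 ± 0.03. The summed level of the family was 11580 to 12410 CPM in mCherry and 10140 to 10710 CPM in Bon.

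The Osiris genes are an insect-specific family of membrane proteins expressed while cuticle and its fine surface structures are laid down. Of 24 members, 17 passed the low-count filter, and 12 of these changed beyond 2-fold, 9 downward and 3 upward. Osi9 fell from 1522, 1693 and 1443 CPM to 261, 219 and 281 CPM (-2.61 ± 0.11, glmTreat adjusted p = 5.12e-05). Osi4 fell from 163, 210 and 201 CPM to 7.52, 5.64 and 6.81 CPM (-4.84 ± 0.16, glmTreat adjusted p = 1.56e-05). Both genes were lower in every Bon library than in any control. Against this trend Osi10 rose from 1.04, 1.18 and 1.04 CPM to 11.6, 12.4 and 10.3 CPM (3.39 ± 0.11, glmTreat adjusted p = 1.18e-08), and Osi3 rose from 10.9, 14.1 and 13.4 CPM to 46, 66.2 and 80.6 CPM (2.32 ± 0.26, glmTreat adjusted p = 0.0215).

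Most Osiris genes lie side by side on arm 3R, from Osi1, which starts at position 6173549 of BDGP6, to Osi20, which ends at 6341424. Within that stretch the rises were flanked by falls. Osi3 (2.32) lies between Osi2 (-0.72 ± 0.09) and Osi4, and Osi10 lies between Osi9 and Osi11 (-0.54 ± 0.05). Osi6, Osi7, Osi8 and Osi9 formed an unbroken run of falls, with log2 fold changes of -1.91, -1.95, -2.41 and -2.61. Osi22, which lies elsewhere on the same arm, went from 8.2, 12.2 and 9.88 CPM to 78.7, 93.4 and 101 CPM (3.16 ± 0.17). Osi17 was not called (-0.12 ± 0.05, edgeR adjusted p = 0.0756). Without mCherry replicate 2, 6 falls and 2 rises of the family passed the 2-fold test.

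**Figure D3:**
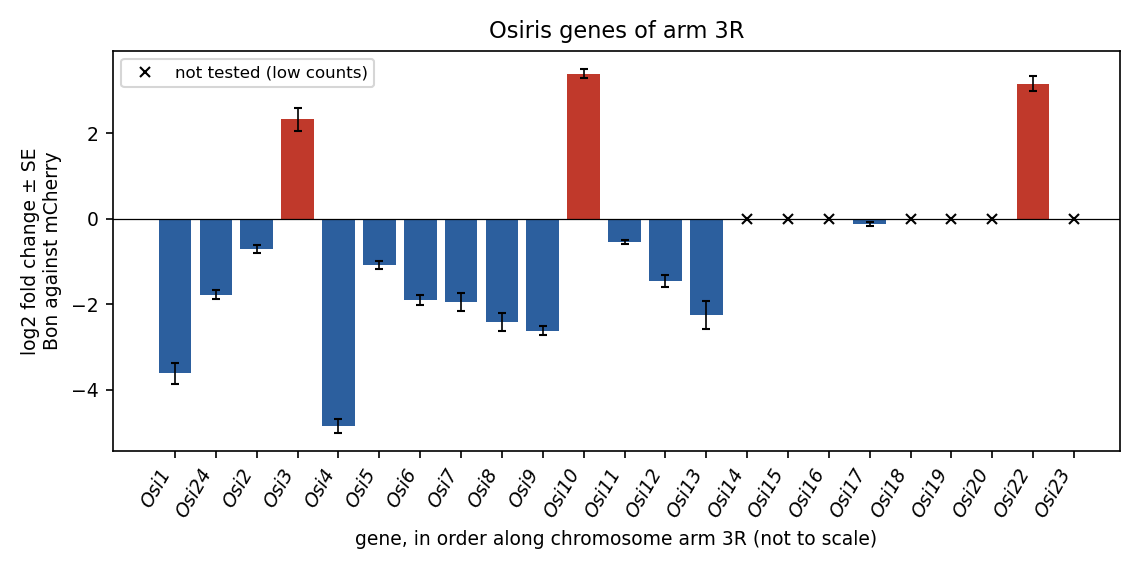
Log2 fold changes (bars) of the Osiris genes of arm 3R in their order along the arm, not to scale. Error bars are the SE worked back from the quasi-likelihood test. Osi22 and Osi23 lie apart from the others. Crosses mark genes with too few counts to test. Osi3 and Osi10 rose between neighbours that fell.

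Cuticle proteins of the Cpr family, which bind chitin through a shared domain, moved both ways, with 6 rises and 7 falls beyond 2-fold among 32 tested of 100 members (40.6%). The sum of the family rose from 1133 to 1197 CPM in mCherry to 4693 to 5370 CPM in Bon, and most of that was 1 gene. Cpr72Ea went from 119, 138 and 129 CPM to 3982, 4479 and 3859 CPM (5.00 ± 0.08, glmTreat adjusted p = 6.51e-10). Its neighbour Cpr72Eb rose from 1.52, 1.39 and 0.694 CPM to 5.96, 7.12 and 5.78 CPM (2.35 ± 0.20). The next gene, Cpr72Ec, fell from 61.9, 46.8 and 67.5 CPM to 12.5, 10.9 and 11.1 CPM (-2.35 ± 0.17, glmTreat adjusted p = 0.00164), so 3 adjacent family members differed in direction. Cpr72Ec encodes a protein of the corneal lens. Cpr97Ea fell from 72.6, 80.7 and 84.6 CPM to 14.6, 14.9 and 14.1 CPM (-2.45 ± 0.06), and Cpr49Ae rose from 16.1, 16.7 and 15.1 CPM to 47.4, 51.3 and 51.5 CPM (1.65 ± 0.05).

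Most tested Vajk and Twdl cuticle genes fell. Of 9 tested members of 30, 5 fell, each beyond 2-fold, 2 rose (TwdlX and TwdlW, both under 1.5 CPM) and 2 were not called. Vajk2 stood at 209, 207 and 219 CPM in mCherry and at 0.932, 0.381 and 0.328 CPM in Bon, and no Bon library came near a control. Vajk1 fell by 2.55 ± 0.08 on the log2 scale, Vajk4 by 5.36 ± 0.11 and TwdlE by 2.35 ± 0.14. The summed level of the class was 331 to 334 CPM in mCherry and 14.7 to 19.9 CPM in Bon.

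Enzymes that make and remodel chitin, the polysaccharide of cuticle, changed unevenly. Of 12 tested chitinase and chitin deacetylase genes, 1 rose and 3 fell beyond 2-fold (33.3%), and of 12 genes of chitin synthesis and organisation 1 rose and 2 fell (25%). The chitinase gene Cht5 fell from 8101, 8297 and 7621 CPM to 1752, 1869 and 1707 CPM (-2.17 ± 0.05, glmTreat adjusted p = 1.54e-09). Cht10, another chitinase, rose from 228, 218 and 233 CPM to 1161, 1318 and 1111 CPM (2.40 ± 0.06, glmTreat adjusted p = 9.38e-08). Cht6 fell from 17.2, 16.5 and 18 CPM to 5.06, 6.4 and 4.19 CPM. The groups did not overlap for these 3 genes.

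On the synthetic side, kkv, which encodes the chitin synthase of the epidermis, fell from 129, 161 and 163 CPM to 44.6, 46.8 and 43.5 CPM (-1.75 ± 0.10, glmTreat adjusted p = 0.000771). The gene expansion (exp), needed for chitin deposition, fell from 83.7, 82.8 and 79.2 CPM to 14.6, 12.9 and 12.6 CPM (-2.61 ± 0.05). Enzymes of the hexosamine pathway, which supplies the building block of chitin, went apart. Gfat1, the first enzyme, rose from 63.2, 64.4 and 62.1 CPM to 137, 147 and 134 CPM (1.14 ± 0.04), while Gnpnat, the next acetyltransferase, fell from 63.4, 68.2 and 63.8 CPM to 15.4, 15.3 and 14.3 CPM (-2.12 ± 0.05, glmTreat adjusted p = 2.03e-09). The chitinase-like growth factors split in the same manner, with Idgf4 at -2.85 ± 0.05, Idgf6 at 1.38 ± 0.09, Idgf2 at 0.85 ± 0.07 and Idgf3 at 0.53 ± 0.06.

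Genes that colour, harden and seal cuticle moved both ways. In the tanning and melanin list, 7 of 13 tested genes fell and 4 rose, 3 and 2 of them beyond 2-fold (38.5%). In the yellow family 2 of 9 tested genes fell and 5 rose, with 2 in each direction beyond 2-fold (44.4%). The gene yellow (y), needed for black melanin, went from 666, 666 and 654 CPM to 3.97, 4.64 and 4.51 CPM (-7.24 ± 0.05, glmTreat adjusted p = 1.28e-14). For y, a marker allele of the stocks and a response to Bon cannot be told apart. The gene amd, of cuticle catechol metabolism, fell from 16.3, 19.5 and 17.5 CPM to 0.527, 0.424 and 0.706 CPM (-5.03 ± 0.13), and the multicopper oxidase gene Mco4 had a log2 fold change of -6.62 ± 0.14. Each was low in all Bon libraries. Within the yellow family, yellow-b rose by 3.19 ± 0.19 and yellow-f2 by 2.06 ± 0.14, and yellow-e had -1.51 ± 0.15. Among the rises of the tanning list, ebony (e), whose product conjugates dopamine and histamine to beta-alanine, went from 1.11, 0.718 and 1.04 CPM to 3.02, 4.37 and 3.18 CPM (1.90 ± 0.20). Among 18 tested genes of fatty acid elongation and waxes, 5 fell and 1 rose beyond 2-fold (33.3%). Fa2h, a fatty acid hydroxylase gene, fell from 89.8 to 111 CPM in mCherry to 0.636 to 0.832 CPM in Bon (-7.12 ± 0.13). The rise was in CG5326, from 1.32, 1.16 and 0.838 CPM to 9.44, 11.6 and 9.26 CPM (3.17 ± 0.15).

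Most genes of both pigment synthesis pathways fell, and none rose. All 7 genes of ommochrome synthesis and transport, the brown screening pigment, fell, 5 of them beyond 2-fold (71.4%), and with upper-quartile factors 6 fell and 4 did so beyond 2-fold. In order of the pathway, vermilion (v), the tryptophan dioxygenase gene, went from 57.5, 61.7 and 55.5 CPM to 0.284, 0.17 and 0.202 CPM. KFase, the kynurenine formamidase gene, went from 44.4, 50.9 and 45.3 CPM to 7.9, 7.63 and 6.66 CPM (-2.66 ± 0.07), and cinnabar (cn), the kynurenine hydroxylase gene, from 85.1, 85.3 and 94.1 CPM to 11.6, 11.2 and 9.18 CPM (-3.04 ± 0.08). These 3 enzyme genes were lower in every Bon library than in any control. The later acting cardinal (cd) fell less, by 1.10 ± 0.03 on the log2 scale. Of the transporters, white (w) went from 563, 604 and 534 CPM to 173, 178 and 157 CPM (-1.74 ± 0.06), while its partner scarlet (st) had -0.16 ± 0.04 (edgeR adjusted p = 0.00403), not called with upper-quartile factors (edgeR adjusted p = 0.0584).

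In the pteridine pathway, which makes the red pigment, 8 of 11 tested genes fell, 3 of them beyond 2-fold. The transporter gene brown (bw), whose product pairs with that of white for red pigment, fell from 439, 458 and 422 CPM to 22.9, 17.8 and 23.7 CPM (-4.36 ± 0.10, glmTreat adjusted p = 7.18e-07). Mocs1, of molybdenum cofactor synthesis, fell from 21.7, 20.6 and 20.6 CPM to 4.68, 4.87 and 5.95 CPM (-2.03 ± 0.08). Punch (Pu), the entry enzyme, had -0.51 ± 0.04. By contrast, none of 15 genes of pigment granule trafficking changed beyond 2-fold. Among them Rab32 had a log2 fold change of -0.56 ± 0.04. The genes y, v and w serve as visible markers in many fly stocks, and for them the genotype text leaves a marker allele and a response to Bon indistinguishable. Both v and w are counted among the ommochrome genes above.

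Genes of the lens fell, while genes of light sensing moved both ways. Crys, a structural protein of the corneal lens, stood at 7.42, 9.22 and 11.3 CPM in mCherry and at 0.0203, 0.127 and 0.0504 CPM in Bon. Its neighbours in function, Cpr72Ec and retinin, fell too, with retinin at 0.607 to 0.76 CPM in mCherry and 0 counts in Bon. Of 30 tested phototransduction genes, 3 rose and 5 fell beyond 2-fold (26.7%). Pdh, the photoreceptor dehydrogenase gene, fell from 50, 51.4 and 54.3 CPM to 0.81, 0.763 and 0.706 CPM (-6.08 ± 0.07, glmTreat adjusted p = 1.32e-12). The rhabdomere myosin gene ninaC went from 778, 774 and 750 CPM to 314, 320 and 305 CPM (-1.30 ± 0.03), and the arrestin gene Arr2 from 196, 195 and 178 CPM to 91.3, 95.4 and 92.6 CPM (-1.03 ± 0.04). All of them were lower in each Bon library than in any control. The other arrestin gene, Arr1, was low but rose from 0.52 to 0.633 CPM to 1.08 to 1.54 CPM. The opsin genes were barely expressed at this stage in either group, with Rh3 and Rh4 under 1 CPM in every library and lower in Bon, and Rh5 at 0.582 to 0.809 CPM in mCherry and 1.51 to 2.33 CPM in Bon. The 4 inaF genes, which regulate the light-gated channel TRP in flies, rose by 2.25 to 2.29 on the log2 scale, but they lie side by side and share transcripts, so they count as 1 observation.

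**Figure D4:**
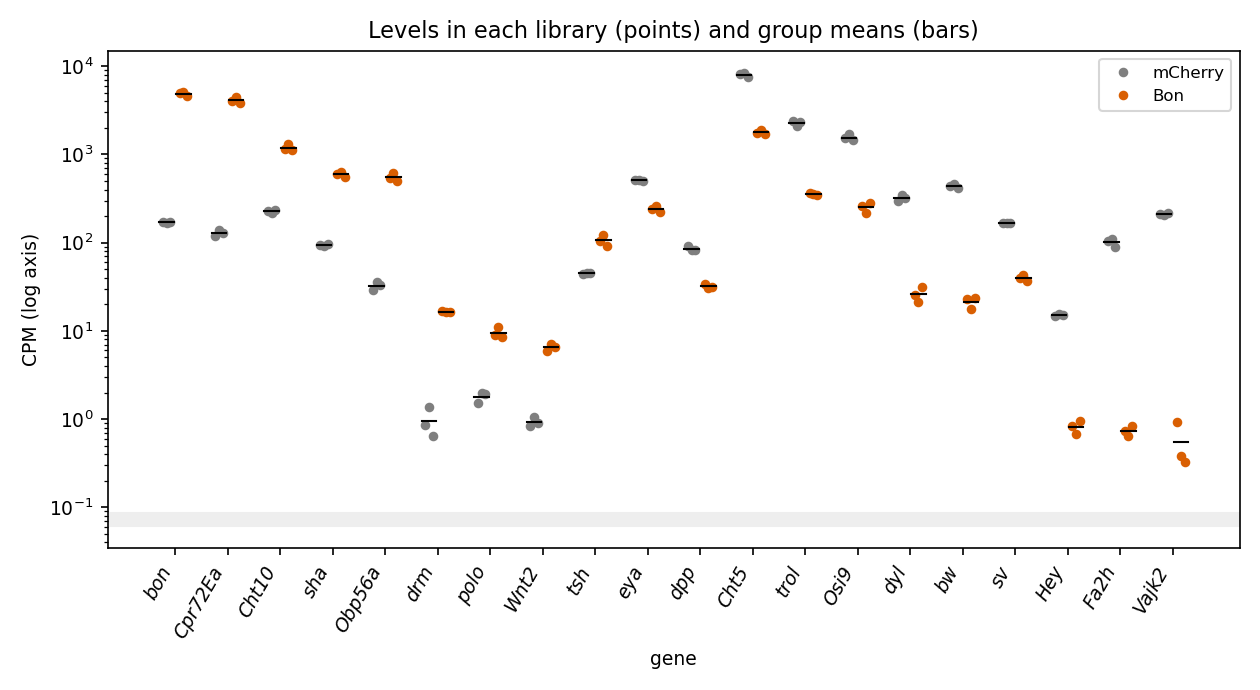
Level of 20 genes in each library (points, CPM on a log axis) with group means (bars), mCherry in grey and Bon in orange. The grey band spans the levels that 3 counts give in these libraries. The 20 genes were chosen among genes past the first test. The groups do not overlap for any of them, nor for 58.9% of all tested genes.

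Few regulators of eye cell identity passed the 2-fold test. None of 15 retinal determination factors did, although 7 rose and 6 fell in the first test (86.7%, against 49.8% of all tested genes). The gene eyes absent (eya) went from 507, 519 and 496 CPM to 242, 260 and 224 CPM (-1.07 ± 0.05, edgeR adjusted p = 6.63e-08), and its partner sine oculis (so) from 194, 188 and 179 CPM to 115, 117 and 109 CPM (-0.72 ± 0.04). The gene teashirt (tsh) rose from 44.3, 45.7 and 45.9 CPM to 105, 121 and 91.9 CPM (1.23 ± 0.10). These shifts were larger than the spread between libraries and all near 2-fold. Among 20 tested photoreceptor and cone cell factors, 1 changed beyond 2-fold: shaven (sv), the Pax2 gene of cone cells, fell from 165, 169 and 167 CPM to 39.6, 42.6 and 36.6 CPM (-2.08 ± 0.05, glmTreat adjusted p = 5.66e-09). The cone cell factor cut (ct) had -0.95 ± 0.05 and BarH1 (B-H1) -1.01 ± 0.05, while lozenge (lz) and prospero (pros), at 0.08 ± 0.05 and 0.08 ± 0.10, did not pass the first test (edgeR adjusted p = 0.196 and 0.544).

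The odd-skipped zinc finger genes, which pattern segments and leg joints, rose in all 4 members. The gene drm went from 0.861, 1.39 and 0.636 CPM to 16.9, 16.3 and 16.4 CPM (4.04 ± 0.15, glmTreat adjusted p = 2.38e-07). The gene sob went from 0.329, 0.317 and 0.318 CPM to 3.75, 3.96 and 3.48 CPM (3.53 ± 0.16), and odd from 0.0289 to 0.127 CPM to 1.39 to 1.44 CPM (4.20 ± 0.31). These 3 genes are neighbours on arm 2L. The distant member bowl, already at 177 to 185 CPM, rose by 0.25 ± 0.06 (edgeR adjusted p = 0.011), a call that was lost without mCherry replicate 3 (edgeR adjusted p = 0.0506). Other regulators that rose from low levels were the head gap gene ems (3.36 ± 0.52) and the nuclear receptor gene eagle (eg, 3.40 ± 0.34), which stayed under 1 CPM in every library. The gene fru rose from 57.1, 57.6 and 62.6 CPM to 319, 377 and 276 CPM (2.46 ± 0.13, glmTreat adjusted p = 0.000389). In the list of sex determination and yolk genes, which holds fru, 3 of 11 rose and 1 fell (36.4%, below the 49.8% of all tested genes). The others called were Yp3 (3.11 ± 0.10), dsx (0.33 ± 0.05) and ix (-0.19 ± 0.06), while Yp1, Yp2 and, outside the list, lncRNA:roX1, at 437 to 877 CPM in mCherry and 708 to 781 CPM in Bon, were not called.

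Signalling genes were read pathway by pathway. For Notch, none of 19 core pathway genes changed beyond 2-fold, whereas 5 of 12 tested genes of the E(spl) and Bearded list did (41.7%). That list takes in Hey, a gene of neither family, which fell from 14.7, 15.7 and 15.3 CPM to 0.831, 0.678 and 0.958 CPM (-4.22 ± 0.10, glmTreat adjusted p = 3.89e-10). The bHLH repressor gene E(spl)m3-HLH fell from 131, 143 and 142 CPM to 18.9, 20.5 and 17.7 CPM (-2.86 ± 0.05), and the Bearded family gene Tom rose from 3.39, 3.59 and 3.12 CPM to 14.4, 16.4 and 13.9 CPM (2.14 ± 0.09). Ocho, next to Tom, also rose beyond 2-fold, from 1 count in the controls together to 50 in Bon. E(spl)m2-BFM, in a run of adjacent falls with E(spl)m3-HLH on arm 3R, also fell beyond 2-fold. Closer to their control level were E(spl)mbeta-HLH at -0.45 ± 0.08 and E(spl)mdelta-HLH at -0.75 ± 0.08.

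In the EGFR list, 4 of 28 genes fell beyond 2-fold and none rose that far (14.3%). The falls were in genes that supply ligand. The rhomboid family genes rho and ru, whose proteases release EGFR ligands, went from 120, 120 and 121 CPM to 50.8, 52.4 and 52.7 CPM (-1.21 ± 0.03) and from 222, 228 and 225 CPM to 89.5, 98.3 and 88.7 CPM (-1.29 ± 0.04). The ligand gene vn went from 44.2, 41.5 and 46.9 CPM to 12.7, 13.3 and 11.1 CPM (-1.83 ± 0.07). A further rhomboid gene, rho-6, fell by 6.09 ± 0.19 on the log2 scale.

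In the Dpp pathway 3 of 21 tested genes changed beyond 2-fold (14.3%). The ligand gene dpp fell from 91.2, 82 and 82.3 CPM to 33.9, 31 and 31.3 CPM (-1.41 ± 0.05, glmTreat adjusted p = 2.95e-05), and crossveinless 2 (cv-2), a secreted BMP-binding protein gene, rose from 27, 27.4 and 29.7 CPM to 105, 114 and 94.2 CPM (1.90 ± 0.07). The third was dally-like (dlp), a glypican gene. For Wnt ligands, Wnt2 rose from 0.836, 1.06 and 0.896 CPM to 5.96, 7.04 and 6.56 CPM (2.79 ± 0.12) and Wnt6 fell from 17.6, 17.1 and 16.1 CPM to 5.39, 5.09 and 4.14 CPM (-1.79 ± 0.08). Ligands of 1 family thus went opposite ways. The gene wg itself rose by 0.63 ± 0.05 and Wnt4 by 0.70 ± 0.05. In the Hedgehog list no gene passed the 2-fold test. There the ligand gene hh went from 105, 107 and 102 CPM to 50.5, 50.7 and 51.8 CPM (-1.04 ± 0.03) and the effector gene ci from 108 CPM in each control to 206, 233 and 201 CPM (0.98 ± 0.05). None of 25 Hippo pathway genes changed beyond 2-fold, and of 16 tested Yki target genes 1 rose and 2 fell beyond 2-fold (18.8%): upd2 (3.71 ± 0.46), vn and dlp. The gene yki was at 59.1 to 61.3 CPM in mCherry and 61 to 61.5 CPM in Bon.

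Genes of the extracellular matrix below the cells were lower for some components only. The perlecan gene trol, a heparan sulphate proteoglycan of basement membranes, fell from 2370, 2124 and 2308 CPM to 367, 357 and 345 CPM (-2.67 ± 0.05, glmTreat adjusted p = 8.28e-11). The laminin gene wb fell from 432, 405 and 427 CPM to 163, 146 and 157 CPM (-1.44 ± 0.04). These were the 2 genes beyond 2-fold among 19 tested genes of that list. The collagen IV gene vkg had -0.93 ± 0.05, while its partner Col4a1 differed by -0.05 ± 0.04 and was not called (edgeR adjusted p = 0.254). Outside that list, 2 further genes that act on or encode heparan sulphate proteoglycans are given here, and other such genes were not tallied. The extracellular sulphatase gene Sulf1 fell from 497, 489 and 474 CPM to 66.8, 69.7 and 67.5 CPM (-2.84 ± 0.03, glmTreat adjusted p = 2.89e-12), and dlp from 472, 480 and 446 CPM to 170, 164 and 165 CPM (-1.48 ± 0.03). In the lattice adhesion list, sns, an immunoglobulin-domain gene that positions pigment cells, was the 1 of 12 genes beyond 2-fold, at 139 to 149 CPM in mCherry and 49.8 to 52 CPM in Bon (-1.49 ± 0.04).

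The ecdysone response was uneven. Of 24 tested genes, 7 rose and 12 fell (79.2%, against 49.8% of all tested genes). Beyond 2-fold, 6 fell (25%) and none rose, and with upper-quartile factors 4 fell that far. Some regulators of the hormone cascade, chosen after their values were seen, changed little: EcR at -0.18 ± 0.03, Eip75B at 0.24 ± 0.04 and Hr4 at 0.47 ± 0.05. They do not stand for all regulators of the cascade. Among secreted products of the response, ImpL1 fell from 2077, 2197 and 1823 CPM to 635, 634 and 726 CPM (-1.61 ± 0.08) and ImpL2, which encodes an insulin-binding protein, from 276, 275 and 274 CPM to 66.4, 64.1 and 61.2 CPM (-2.10 ± 0.03), while ImpE2 rose from 2985, 3176 and 2931 CPM to 4258, 4338 and 4175 CPM (0.49 ± 0.04).

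Several mitosis genes rose, while genes of growth arrest and endocycle moved both ways. Of 19 tested mitosis genes, 10 rose, 4 of them beyond 2-fold (21.1%), and 2 fell. String (stg), the Cdc25 phosphatase gene, went from 44.4, 53.5 and 50.2 CPM to 126, 148 and 123 CPM (1.42 ± 0.10). The mitotic kinase gene polo went from 1.52, 1.96 and 1.91 CPM to 8.95, 11.2 and 8.47 CPM (2.40 ± 0.14, glmTreat adjusted p = 9.07e-06), and CycA from 21.6, 21.5 and 21.3 CPM to 45.5, 46.9 and 45.9 CPM (1.10 ± 0.04). Each was higher in all Bon libraries. Cdk1, the kinase that cyclin A activates, had a log2 fold change of -0.37 ± 0.05. Of 28 S phase genes, 1 rose and 1 fell beyond 2-fold (7.14%), PCNA from under 0.2 CPM and Orc1 from 14.7, 14.5 and 14.5 CPM to 3.81, 3.62 and 3.88 CPM. Of 11 growth arrest and endocycle genes, 4 rose and 4 fell (72.7%, against 49.8% of all tested genes). In that list 1 gene fell beyond 2-fold (9.09%), and the median log2 fold change was 0.007. Large falls, not all of them in that list, were those of dacapo (dap) and Skp2. The CDK inhibitor gene dap fell from 112, 112 and 106 CPM to 23, 23.4 and 21.2 CPM (-2.29 ± 0.04, glmTreat adjusted p = 4.08e-10). Skp2, an F-box gene, fell from 75.1, 75.6 and 71.8 CPM to 13.4, 11.8 and 12.9 CPM (-2.55 ± 0.05).

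Among 57 tested cytochrome P450 genes, 5 rose and 4 fell beyond 2-fold (15.8%). The adjacent genes Cyp4p1, Cyp4p2 and Cyp4p3 of arm 2R rose together. Cyp4p2 went from 0.456, 0.422 and 0.231 CPM to 66.4, 69.7 and 68.4 CPM (7.48 ± 0.09), Cyp4p1 from 0.0422 to 0.116 CPM to 20.8 to 23.2 CPM, and Cyp4p3 from under 0.03 CPM to 0.932 to 1.29 CPM. Because these copies are alike, reads may have been split among them. Among the falls were Cyp9c1, whose counts equal those of an antisense gene that overlaps it, and Cyp18a1, which encodes an ecdysteroid-inactivating enzyme (87.6, 93.9 and 82.5 CPM against 36.1, 38.2 and 29.8 CPM). GstE14, needed for ecdysteroid synthesis in the fly's endocrine gland, fell from 21, 21.2 and 21.9 CPM to 0.952, 0.932 and 0.984 CPM (-4.48 ± 0.07), and it was 1 of 2 genes beyond 2-fold among 31 glutathione S-transferases (6.45%), close to the share of all tested genes. Of 16 tested odorant-binding protein genes, 1 rose and 2 fell beyond 2-fold (18.8%). Obp56a rose from 29.4, 35.5 and 33.2 CPM to 540, 616 and 502 CPM (4.08 ± 0.11, glmTreat adjusted p = 1.66e-06). Obp19c and Obp19d, both near 1 to 2 CPM in controls, had log2 fold changes of -4.11 ± 0.33 and -3.42 ± 0.22. The receptor gene mthl8 rose from 8 counts in all controls together to 35.9 to 43.4 CPM.

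Neuronal and immune lists differed in how much they changed. Of 24 tested presynaptic genes, 11 rose and 3 fell (58.3%, against 49.8% of all tested genes), 1 in each direction beyond 2-fold (8.33%). Their sum was 5992 to 6530 CPM in mCherry and 7625 to 7759 CPM in Bon. Of 45 tested Toll and Imd signalling genes, 15 rose and 10 fell (55.6%), 3 and 2 of them beyond 2-fold (11.1%). Their sum was 4687 to 4858 CPM in mCherry and 5831 to 6137 CPM in Bon. Of 36 tested ion channel genes, 1 rose and 4 fell beyond 2-fold (13.9%). The calcium-activated potassium channel gene slo fell from 407, 371 and 385 CPM to 153, 144 and 165 CPM (-1.33 ± 0.05), and the inward rectifier gene Irk2 rose from 0.633, 0.718 and 0.52 CPM to 3.52, 3.35 and 2.72 CPM (2.34 ± 0.17). Among 68 wiring adhesion receptors, 3 passed (4.41%), below the share of all tested genes. They include dpr11, an immunoglobulin-domain gene of synaptic pairing, at 343, 332 and 331 CPM in mCherry and 109, 102 and 115 CPM in Bon (-1.62 ± 0.04), and side-V at -1.48 ± 0.04. Hdc, which encodes the enzyme that makes histamine, the photoreceptor transmitter, fell from 14.8, 11.9 and 12.8 CPM to 5.19, 5.59 and 5.2 CPM (-1.30 ± 0.09). The groups did not overlap for any of these. The glial gene wrapper fell from 278, 290 and 276 CPM to 115, 112 and 117 CPM (-1.30 ± 0.03), and it was the 1 of 13 tested glial markers beyond 2-fold while 7 of the 13 fell in the first test. Of 8 peptidoglycan recognition genes 1 passed (12.5%). PGRP-LB, an amidase gene that dampens immune signalling, fell from 34.1, 34.6 and 33.1 CPM to 1.17, 0.932 and 0.933 CPM (-5.05 ± 0.08).

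Below the largest changes, genes in none of the lists, with absolute log2 fold changes of 1 to 3, were named by the smallest p. Among the rises, Skeletor (Skel), first described as a spindle matrix protein, went from 117, 118 and 112 CPM to 704, 754 and 699 CPM (2.64 ± 0.04, glmTreat adjusted p = 3.05e-11). The lipocalin gene NLaz went from 25.7, 26 and 25.9 CPM to 97.2, 93.3 and 93.8 CPM (1.87 ± 0.03), and the ABC transporter gene Mdr49 from 15.1, 15.8 and 15.5 CPM to 56.4, 61.8 and 54.5 CPM (1.89 ± 0.05). Libraries of a group lay close together in all 3. The serine protease genes Sp7 (2.66 ± 0.10) and masquerade (mas, 1.39 ± 0.04), the hormone receptor gene Lgr1 (1.42 ± 0.04), the zinc finger gene dati (1.66 ± 0.05) and the photolyase gene phr (1.20 ± 0.04) also rose beyond 2-fold. Among the falls, the bHLH gene taxi (tx) went from 72.7, 76.8 and 68.4 CPM to 13.5, 13.1 and 12 CPM (-2.50 ± 0.06), the neurotransmitter-transporter-like gene blot from 572, 565 and 541 CPM to 150, 147 and 142 CPM (-1.93 ± 0.03), and the LIM domain gene Lmpt from 317, 326 and 312 CPM to 115, 113 and 107 CPM (-1.51 ± 0.03). The remaining falls of this group were bma, rgr, tfc and Reg-5, with log2 fold changes from -2.60 to -1.49.

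Among other abundant transcripts, the iron-binding transferrin gene Tsf1 rose from 2920, 3123 and 2587 CPM to 5679, 5833 and 5845 CPM (1.01 ± 0.06), and bangles and beads (bnb) from 8000, 8102 and 7936 CPM to 13306, 13973 and 12417 CPM (0.72 ± 0.05). The serpin gene Spn100A rose from 723, 753 and 724 CPM to 2096, 2195 and 1992 CPM (1.51 ± 0.04, glmTreat adjusted p = 3.62e-07). Among the falls, thioredoxin reductase 1 (Trxr1) went from 902, 946 and 820 CPM to 298, 291 and 290 CPM (-1.60 ± 0.05). The tubulin genes alphaTub84B (-0.27 ± 0.04) and betaTub56D (-0.34 ± 0.03) fell slightly, and Act5C was level (-0.01 ± 0.03, edgeR adjusted p = 0.772).

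Some genes were near absent in 1 group. In 10 genes with a mean of at least 1 CPM in Bon, every control library held 3 counts or fewer. CG9822 had 3 counts in the controls together and 6.38, 6.34 and 5.57 CPM in Bon, with a 95% counting interval of 6.40 to 10.24 for the log2 ratio of summed counts. CG13046 had 0 counts in the controls and was at least 16.8-fold higher in Bon against a floor of 3 counts per library. In the other direction there were 8 such genes. The segmentation gene ftz had 172 counts in the controls and 0 in Bon, at least 21.3-fold lower, and Prosbeta5R1, a paralogue of a proteasome subunit gene that is not in the list of canonical subunits, had 188 and 0, at least 23.1-fold lower. These intervals and floors cover counting error only.

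No gene among 83 cytoplasmic ribosomal proteins, 73 mitochondrial ribosomal proteins, 70 respiratory chain subunits, 32 canonical proteasome subunits, 27 septate junction genes or 14 planar polarity genes changed beyond 2-fold. The first test called 33 ribosomal protein genes lower and 1 higher with TMM factors, 31 and 1 with median-of-ratios factors, 13 and 3 with library totals alone and 8 and 6 with upper-quartile factors, so the number depends on the scaling. Without Bon replicate 1 it was 19 lower and without Bon replicate 2 it was 18 lower. For respiratory chain genes 23 were higher and 6 lower, and 36 and 4 with upper-quartile factors, while 13 were higher without mCherry replicate 1 and 14 without Bon replicate 1. Secretory pathway genes were lower under every scaling. Of 23 genes of translocation into the endoplasmic reticulum and glycosylation, 19 fell and 1 rose, with TMM, median-of-ratios and upper-quartile factors and with library totals alone, and their median log2 fold change was -0.29 against -0.01 for all tested genes. Sec61alpha, which forms the channel, went from 750, 771 and 709 CPM to 500, 508 and 490 CPM (-0.57 ± 0.04, edgeR adjusted p = 1.96e-07), and Sec61beta from 391, 419 and 381 CPM to 270, 272 and 257 CPM (-0.58 ± 0.04).

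By class of transcript, 51% of 9964 protein-coding genes, 41.3% of 789 lincRNA genes and 8.47% of 59 small nucleolar RNA genes passed the first test. Beyond 2-fold the shares were 6.19%, 7.35% and 0%. The small chromosome 4 had 51 rises and 9 falls among 96 tested genes, and 66 and 3 with upper-quartile factors, while 3 of its genes rose and 1 fell beyond 2-fold. Its named members include ci, toy (0.31 ± 0.04), unc-13 (0.73 ± 0.04) and dati, which rose, and sv, which fell. The X had the lowest share beyond 2-fold of the large arms, 4.55%, against 6% to 7.27% on arms 2L, 2R, 3L and 3R.

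Genes that changed together often lay side by side. Of the 263 rises beyond 2-fold, 92 (35%) had a nearest non-overlapping neighbour that also rose beyond 2-fold, and 7.6% had 1 that fell. Of the 423 falls, 134 (31.7%) had a neighbour that fell and 4.96% 1 that rose. Among 10246 genes not called beyond 2-fold, the shares with a rising and with a falling neighbour were 4.08% and 6.3%. There were 20 runs of 3 or more adjacent rises, with 67 genes in all, and 22 runs of falls, with 76 genes. Several runs are families of like genes or parts of 1 transcript, so their members are not independent.

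Runs that no gene class describes, named here after their values were seen, show the range. On arm 2L (positions 16697924 to 16700825 of BDGP6) the genes of 4 microRNAs, mir-9c, mir-306, mir-79 and mir-9b, rose together from near 0, mir-9c from 0, 0.0211 and 0.0289 CPM to 0.932, 1.44 and 1.26 CPM (5.96 ± 0.47). Poly(A) libraries do not measure mature microRNAs, so these values concern the primary transcript. On arm 2R (7446189 to 7458874) Fa2h fell with its neighbours CG11125, from 45.4, 48.5 and 41.8 CPM to 0.972, 1.23 and 1.54 CPM (-5.20 ± 0.11), lncRNA:CR45320 and Inos, which encodes an enzyme of inositol synthesis (-1.56 ± 0.05). On arm 3L (12177601 to 12190705) the carbonic anhydrase gene CAH2, the inositol oxygenase gene Miox and the esterase gene Est-6 fell. Est-6 went from 22.7, 21.2 and 20.3 CPM to 1.05, 1.08 and 0.933 CPM (-4.38 ± 0.08). On arm 3R (14215459 to 14226762) 4 adjacent genes rose, among them the serine protease gene Sp212 from 1.29, 1.67 and 1.5 CPM to 14.5, 17.4 and 13.8 CPM (3.35 ± 0.12). In each gene named with its values, every Bon library lay outside the range of the controls.

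**Figure D5:**
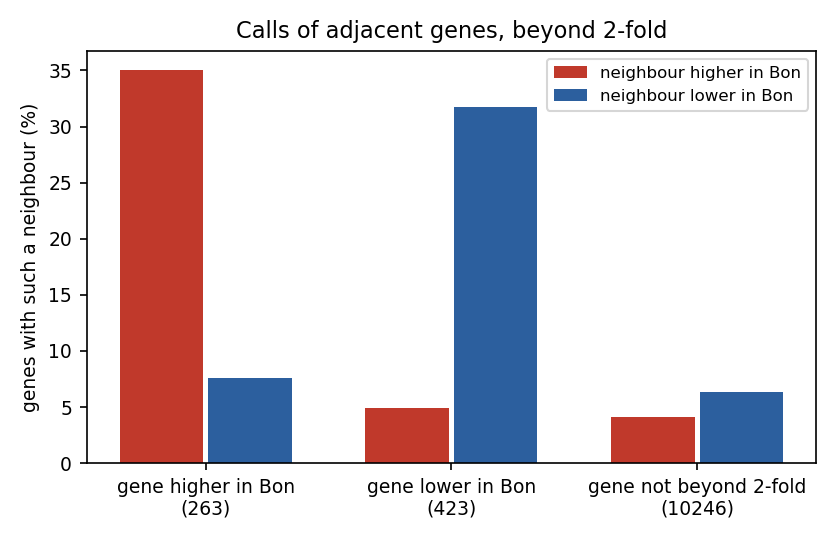
Share of genes with an adjacent gene that rose (red) or fell (blue) beyond 2-fold, for genes that rose, fell or were not called beyond 2-fold, with the number of genes under each pair of bars. Neighbours shared a direction in 35% of rises and 31.7% of falls, against 4.08% and 6.3% of genes not called.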

How the data were processed

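RNA of 6 libraries was compared, 3 per group, grouped and numbered by sample title. For each library the authors deposited a table of estimated counts per gene, per the file headers, and 39.7 to 42.8% of the values had decimals. STAR 2.7.0e, Bowtie2 2.3.5.1, cutadapt 2.9, Subread 1.6.2 with featureCounts, DESeq2 1.30.1 and the build BDGP6 are listed in the submitters' processing notes. What each tool did, how shared reads were treated and whether strand was used is not given in the sources consulted. Overlapping genes may hold the same reads: 115 overlapping pairs had values within 1% of each other in every library, and antisense partners cannot be told apart.

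Counts were rounded, and 10962 of 17558 genes passed filterByExpr (minimum count 10). Of the 17558, 17252 matched a current symbol. TMM scaling, the robust quasi-likelihood test and glmTreat against an absolute log2 fold change of 1 were run in edgeR 4.0.16 (R 4.3.3), two-sided, with group as the only term. Benjamini-Hochberg adjustment covered every tested gene in both tests, with a threshold of 0.05, and they were first tested on simulated data. Log2 fold changes are given ± standard error (SE). Each SE was worked back from the gene's log2 fold change and its F statistic in the quasi-likelihood test. It was not estimated separately from the spread of the replicates. Where a mean rests on few counts, 3 counts correspond to 0.0618 to 0.0859 CPM, for counting error only. Alternatives were other scalings and filters, DESeq2 1.42.0, a replicate block and leaving out each library.

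The comparison and the 85 gene lists were chosen with earlier results of these data known, and 22 list members were not matched. Named genes are the list members with the smallest p (4 per list) and members of lists with fewer than 13 tested genes. List members that changed beyond 2-fold could also be named, a rule that rests on their outcome. To these were added the 12 rises and 12 falls with the largest difference in level per length, the 10 rises and 10 falls with the smallest p among unlisted genes with absolute log2 fold changes of 1 to 3, and the 8 most abundant near-absent genes per direction. The genes Act5C, Arr1, Cdk1, Col4a1, EcR, Eip75B, Hml, Hr4, lncRNA:roX1, Osi2, Osi11, Osi17, repo, Rh5, tsh, inaF-C, inaF-D, dsx and those of the adjacent runs were chosen after their values were seen.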

Additional observations from a re-analysis of the deposited data

How the results depend on the processing

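The counts of rises and falls stayed within 1.5 times of their values under every scaling, filter, tool and left-out library run. Leaving out 1 library at a time gave 2159 to 2457 rises and 2552 to 2848 falls, and 235 to 266 rises and 395 to 427 falls beyond 2-fold. DESeq2 gave 199 rises and 344 falls beyond 2-fold. Deviations of same-numbered libraries correlated at 0.0956, 0.0803 and 0.214 across genes, so the numbers were not taken as pairs, although each library correlated best with its own number. With the replicate number as a block, 2771 genes rose and 3122 fell, 274 and 425 of them beyond 2-fold. Among 201 named genes and 2596 gene settings, 17 lost their call, 15 gained one and 0 reversed. The lost calls were in gl, TwdlX, ix, bowl and st, and the gains were in Osi17, elav, lz, pros, repo and yki. Of 4420 list settings, 274 moved by more than 1.5 times. The depth limits statements on genes near 3 counts per library, and the cause of these changes was not tested.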
